A study of Homo sapiens with 12 samples.

Results

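The genes described here are 33 genes of glycolysis and of the cellular response to low oxygen. They comprised 18 glycolytic enzymes (HK1, HK2, GPI, PFKL, PFKM, PFKP, ALDOA, ALDOC, TPI1, GAPDH, PGK1, PGAM1, ENO1, ENO2, ENO3, PKM, LDHA and LDHB), 5 kinases that steer carbon into or past the mitochondrion (PDK1, PDK3, PFKFB2, PFKFB3 and PFKFB4), 3 genes of oxygen sensing (EGLN1, EGLN3 and HIF1A) and 7 targets of the hypoxia response (BNIP3, CA9, VEGFA, ADM, P4HA1, NDRG1 and ANKRD37). The list was set by gene name, and all 33 were found among the 60671 genes of the count table. All 33 also passed the filter on low counts, which 18626 genes passed.

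RNA was sequenced from 3 human leukemia cell lines, with 4 libraries of each. The cells were maintained in DMEM with 10% FBS and used during mid-log growth. No drug treatment is described for the sequenced cells. K562 is the parental chronic myeloid leukemia line. K/VP.5 is an etoposide-resistant clone selected from K562 by exposure to the topoisomerase II poison etoposide, and K562/SSedit-2 is a clone of K562 in which Cas9 with homology-directed repair changed the 5′ splice site at the exon 19/intron 19 boundary of 2 of the 3 TOP2α alleles. They are called the selected clone and the edited clone below. Each derived line is 1 clone, so a difference between lines cannot be told apart from a difference between clones, and the labels do not say whether the 4 libraries of a line came from separate cultures. The p-values below measure only the spread between these libraries.

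Glycolysis splits glucose into pyruvate in the cytosol, and lactate dehydrogenase then reduces pyruvate to lactate while it regenerates NAD. Pyruvate dehydrogenase kinases hold pyruvate back from the mitochondrion, and the PFKFB enzymes set the level of fructose 2,6-bisphosphate, the main allosteric activator of phosphofructokinase. When oxygen is scarce, prolyl hydroxylases (EGLN1, EGLN3) no longer mark HIF-1α for destruction, and HIF binds short ACGTG or GCGTG cores in the promoters and enhancers of many glycolytic and hypoxia genes and raises their transcription.

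Total counts were between 28981722 and 43648830 per library, and normalized expression is given in CPM, the counts of a gene scaled to a common library size with the TMM method. TOP2A, the edited gene, was at 352.5 to 488 CPM in K562, 268 to 282 CPM in K/VP.5 and 177 to 208 CPM in K562/SSedit-2. The erythroid marker GATA1 was at means of 387, 275 and 388 CPM in the order K562, K/VP.5 and the edited clone. KLF1, another such marker, was at means of 210.0, 201 and 211 CPM. A list of 11 genes of K562 identity was less even, at a false discovery rate of 10% (edgeR, described below). In the edited clone 7 exceeded K562, 2 of them past 2-fold, and 0 fell below it (4.86% and 7.79% of all genes). The median log2 fold change of the 11 was 0.36. For the selected clone, 4 rose, 2 of them past 2-fold, and 4 fell (26.2% and 26.1% of all genes). The markers of other cell types were not all absent. CD3E, MS4A1 and PAX5 did not pass the filter, whereas KRT8 was at means of 395, 647 and 423 CPM and PECAM1 at 24.8, 0.286 and 36.2 CPM. K562 replicate 1 stood apart from the rest. Over all tested genes its log2 distance from the mean of the other 3 K562 libraries had an SD of 0.375, against 0.152 to 0.263 for the same measure in the other 11 libraries, and its 13 mitochondrially encoded genes summed to 7273 CPM, against 2675 to 4484 CPM elsewhere. Comparisons with K562 whose call changed without this library are given below with and without it.

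The upstream sequences of 6 of the genes are shown because these genes were among those that were lowest together in the libraries numbered 4 (described further on) and because they carry the core that HIF recognizes. Each run is the 200 bases before a RefSeq start in GRCh38.p14, written 5′ to 3′ along the strand of the gene, in lower case with each ACGTG or GCGTG core, or its reverse complement CACGT or CACGC, in capitals. PDK1 and LDHA each had another window, which is not shown. That of PDK1 (chr2:172555173-172555372) held 0 cores, and that of LDHA (chr11:18396151-18396350) held 1 core, which was not ACGTG.
ALDOC (chr17:28576896-28577095, minus strand): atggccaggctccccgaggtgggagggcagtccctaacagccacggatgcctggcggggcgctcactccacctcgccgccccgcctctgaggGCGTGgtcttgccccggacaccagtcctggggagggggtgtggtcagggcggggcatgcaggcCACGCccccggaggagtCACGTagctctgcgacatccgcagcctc
LDHA (chr11:18394363-18394562, plus strand): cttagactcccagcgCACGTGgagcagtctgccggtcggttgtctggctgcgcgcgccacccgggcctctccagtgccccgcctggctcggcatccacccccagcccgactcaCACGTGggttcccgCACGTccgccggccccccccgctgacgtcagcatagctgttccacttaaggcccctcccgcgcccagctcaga
PDK1 (chr2:172555890-172556089, plus strand): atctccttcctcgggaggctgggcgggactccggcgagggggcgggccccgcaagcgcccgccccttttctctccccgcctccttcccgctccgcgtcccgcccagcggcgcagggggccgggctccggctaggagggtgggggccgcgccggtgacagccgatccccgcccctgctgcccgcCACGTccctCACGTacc
BNIP3 (chr10:131981924-131982123, minus strand): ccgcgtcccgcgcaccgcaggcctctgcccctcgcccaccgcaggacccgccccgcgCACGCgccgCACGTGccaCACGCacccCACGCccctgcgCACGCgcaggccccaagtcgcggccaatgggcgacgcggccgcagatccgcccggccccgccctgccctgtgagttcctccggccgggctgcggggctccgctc
CA9 (chr9:35673728-35673927, plus strand): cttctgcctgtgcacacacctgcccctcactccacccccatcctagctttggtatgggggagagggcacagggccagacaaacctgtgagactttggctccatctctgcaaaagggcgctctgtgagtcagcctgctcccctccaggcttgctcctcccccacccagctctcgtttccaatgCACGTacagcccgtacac
P4HA1 (chr10:73096867-73097066, minus strand): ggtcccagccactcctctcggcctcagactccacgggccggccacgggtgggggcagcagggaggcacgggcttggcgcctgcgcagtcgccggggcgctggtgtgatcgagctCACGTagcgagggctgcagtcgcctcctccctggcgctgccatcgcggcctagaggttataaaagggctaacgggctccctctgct
ALDOC and BNIP3 held cores of both kinds, while LDHA, PDK1, CA9 and P4HA1 held only the ACGTG core in the window shown. The run CACGTG in LDHA and BNIP3 reads ACGTG on both strands and is also the E-box, so the same letters can be read as a site of another factor.

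RefSeq windows were matched to 30 of the 33 genes, 54 windows in all. VEGFA, NDRG1 and PFKFB2 were not matched. An ACGTG core on either strand was present in 22 of the 54 windows (40.7%), and in 15.6% of all 35116 RefSeq windows of the same length. With GCGTG also allowed, the shares were 57.4% and 38.1%. Counted by gene, 10 of the 14 matched genes that were lowest in the number 4 libraries and 9 of the 16 others had ACGTG in at least 1 window, against 18.6% of all 27305 genes with a window. These shares are not on equal terms, since the 30 genes had 54 windows and the 27305 genes 35116, so fewer windows each. Nor were the 27305 genes limited to those that passed the filter on low counts. These matches are a description of letters. HIF binding was not measured in these cells.

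In K/VP.5 against K562, 1 of the 33 genes was higher (ENO2) and 2 were lower (PDK3 and ALDOC) past 2-fold at a false discovery rate of 10%, by the quasi-likelihood test of edgeR, with p-values adjusted over the 18626 genes by the method of Benjamini and Hochberg. The same rule called 8.98% of all tested genes higher and 6.66% lower. Without the fold cutoff, 7 genes were higher, 11 were lower and 15 did not pass, while 26.2% of all genes were higher and 26.1% lower. The median log2 fold change of the 33 genes was -0.02, and that of all tested genes was 0.01. The 2-fold count was 2 without K/VP.5 replicate 4, 4 without K/VP.5 replicate 2 and 5 without K562 replicate 4. Without K562 replicate 1, ALDOC was lost at 2-fold and ADM, close to the detection limit, was added (-1.0, adjusted p = 0.0878, edgeR). The libraries are of whole cultures, in which fewer cells expressing a gene and less RNA per cell cannot be told apart. Below, a difference given as a plain number after "by" is a log2 fold change.

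Fewer of the genes passed in K562/SSedit-2 against its parent. Past 2-fold, ENO2 and NDRG1 were higher and PDK3 was lower than in K562, where the rule called 0.805% of all genes higher and 1.26% lower. Without the fold cutoff, 4 genes were higher (ENO2, NDRG1, LDHB and PFKFB2), 2 were lower (PDK3 and PFKFB3) and 27 did not pass, against 4.86% of all genes higher and 7.79% lower. The labels do not say whether the replicate numbers pair the libraries of these lines. In a fit that blocked on the number, 8 genes passed, BNIP3 and EGLN3 being added, while 16.4% of all genes did. Without K562 replicate 1, 9 genes passed, as did 19.5% of all genes. The median log2 fold changes were -0.01 for the 33 genes and -0.01 for all genes. ENO2, NDRG1 and PDK3 stayed past 2-fold when any single library was left out.

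In K562/SSedit-2 against K/VP.5, 3 genes were higher past 2-fold (NDRG1, PDK3 and ALDOC) and 0 were lower. All genes were called higher in 6.2% and lower in 9.62% of cases. At any fold, 12 were higher, 6 were lower and 15 did not pass, against 26.2% higher and 27.8% lower over all genes, with medians of 0.17 for the 33 genes and -0.01 for all. Of these calls, those of ALDOA, PKM, PFKFB2, PFKFB4 and HIF1A were lost when 1 or more single libraries were left out, as given below. The 2-fold count was 4 in 9 of the 12 fits that left out a single library, PGAM1 being added. This comparison shares its libraries with the other two, so the 3 sets of calls are not independent of each other.

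**Figure D1:**
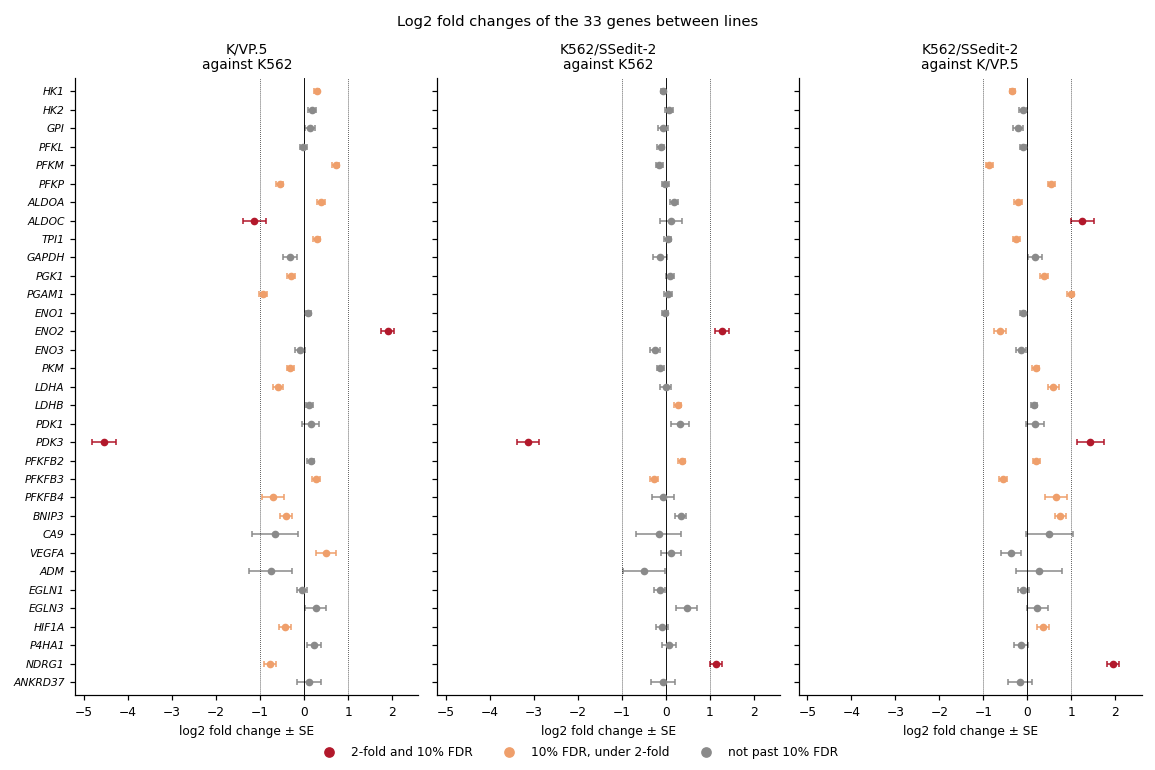
Log2 fold change (x axis) with its standard error for each of the 33 genes (y axis) in the 3 comparisons between lines, from the edgeR fit of all 12 libraries. Dotted lines mark 2-fold. PDK3 lies far to the left in both comparisons with K562, ENO2 to the right, and NDRG1 to the right in both comparisons of K562/SSedit-2.

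The enzymes that prepare glucose for cleavage come before the others in the pathway. HK1, which phosphorylates glucose on entry and binds the mitochondrion, was the hexokinase of higher level per length, with 87.4% of the CPM per kb of HK1 and HK2 together in K562, 88.2% in the selected clone and 86.3% in the edited clone. Shares per kb use the length of the canonical transcript, and with all exon bases of the gene in its place those of HK1 were 79.2%, 80.5% and 77.7%. HK1 was at 1504, 1475, 1562 and 1568 CPM in K562, at 1809, 1958, 1867 and 1824 CPM in K/VP.5, and at 1458, 1385, 1486 and 1544 CPM in K562/SSedit-2. All 4 K/VP.5 libraries lay above all others. The log2 fold change in K/VP.5 was 0.29 (standard error 0.054, adjusted p = 0.000349, edgeR) against K562, and K562/SSedit-2 was lower than K/VP.5 by a log2 change of -0.34 (adjusted p = 5.9e-05, edgeR). HK2, the inducible hexokinase, ranged from 309.7 to 449 CPM over the 12 libraries and passed in no comparison of the main fit (log2 fold changes of 0.18, 0.07 and -0.10 in the order of the comparisons above). In K/VP.5 against K562, 0.18 passed in the fit blocked on replicate number (adjusted p = 0.0364, edgeR). It also passed with upper-quartile scaling (0.24) or at least 1 CPM in 4 samples (0.20), with adjusted p = 0.0525 and 0.0867 (edgeR). Without K562 replicate 3 (0.21) or K/VP.5 replicate 4 (0.24) it passed as well (adjusted p = 0.0805 and 0.0526, edgeR).

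GPI interconverts the 6-phosphates of glucose and fructose. It was at 754, 525, 525 and 497 CPM in K562, at 611, 712, 652 and 559.7 CPM in K/VP.5 and at 596, 556, 538 and 507 CPM in K562/SSedit-2. Its log2 fold change in K/VP.5 was 0.14 (standard error 0.11, adjusted p = 0.339, edgeR). K562 replicate 1 was the highest of the 12 libraries, and without it the change was 0.28 (adjusted p = 0.00455, edgeR). The change of GPI in K562/SSedit-2 against K562 turned from -0.07 to 0.09 without it (adjusted p = 0.788 and 0.449, edgeR).

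Phosphofructokinase commits sugar to glycolysis as a tetramer of liver (PFKL), muscle (PFKM) and platelet (PFKP) subunits. PFKL had the highest level per length in each line, at 220.7, 236, 219.6 and 204 CPM in K562, 201, 230.4, 220.1 and 220.5 CPM in K/VP.5, and 228, 205, 207 and 174 CPM in K562/SSedit-2, so that the lines overlapped. PFKM ranged from 56.1 to 73.1 CPM in K562, from 107 to 122 CPM in K/VP.5 and from 59.0 to 64.2 CPM in K562/SSedit-2, whereas PFKP ranged from 125 to 156, from 91.2 to 109 and from 128 to 151 CPM. In K/VP.5, PFKM was higher by 0.72 (standard error 0.081, adjusted p = 1.64e-06, edgeR) and PFKP lower by a log2 change of -0.55 (standard error 0.080, adjusted p = 2.94e-05, edgeR) than in K562. Against K/VP.5, the log2 fold changes in K562/SSedit-2 were -0.87 for PFKM and 0.54 for PFKP (adjusted p = 1.92e-07 and 3.38e-05, edgeR). Against K562, PFKM in the edited clone was -0.15 (adjusted p = 0.308, edgeR), and -0.23 without K562 replicate 1, its lowest K562 library (adjusted p = 0.0182, edgeR). As shares of the family per kb, PFKM was 14.6% ± 2.1 (SD, n = 4) in K562, 24.6% ± 1.1 in the selected clone and 14% ± 1.4 in the edited clone, and PFKP was 35.7% ± 2.1, 25.0% ± 0.95 and 37.6% ± 0.5. With all exon bases as the length, PFKM was 18.0%, 29.7% and 17.3% and PFKP 35.0%, 23.9% and 36.9%, so that the order of these subunits in the selected clone depends on the length. PFKM and SENP1 share exon bases on opposite strands, so part of this count could belong to SENP1.

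Aldolase splits fructose 1,6-bisphosphate, and ALDOA is the ubiquitous form while ALDOC is known from brain and as a HIF target. ALDOA was at 131.5, 138, 141.5 and 124 CPM in K562, 155, 205, 183 and 157 CPM in K/VP.5, and 155, 161, 158 and 132.5 CPM in K562/SSedit-2. It was higher in K/VP.5 than in K562 by 0.39 (standard error 0.090, adjusted p = 0.0021, edgeR), with no overlap of the libraries. In the edited clone against K/VP.5 it was -0.21 (adjusted p = 0.0693, edgeR), a call that was lost in 7 of the 12 fits without a single library, with -0.11 as the smallest change, without K/VP.5 replicate 2 (adjusted p = 0.34, edgeR). ALDOC (chr17:28573115-28576948, minus strand) was at 160.0, 109, 85.9 and 55.1 CPM in K562, at 43.3, 61.7, 49.3 and 32.4 CPM in K/VP.5, and at 137, 125, 102 and 82.0 CPM in K562/SSedit-2. The K562 libraries spread widely, and their lowest value, in replicate 4, fell inside the range of K/VP.5, whose libraries all lay below those of K562/SSedit-2.

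ALDOC was lower in K/VP.5 by a log2 change of -1.13 (standard error 0.26, adjusted p = 0.00181, edgeR), and higher in the edited clone than in K/VP.5 by 1.25 (standard error 0.26, adjusted p = 0.000751, edgeR). Between K562/SSedit-2 and K562 it was 0.12 (adjusted p = 0.835, edgeR), and 0.42 without K562 replicate 1 (adjusted p = 0.196, edgeR). The 2-fold call against K562 rested on single libraries, since the change was -0.85 without K562 replicate 1 (adjusted p = 0.0023, edgeR) and -0.98 without K/VP.5 replicate 4 (adjusted p = 0.00651, edgeR). The share of ALDOC in both aldolases, per kb, was 42.4% ± 10.0 (SD, n = 4) in K562, 21.1% ± 2.7 in the selected clone and 42.5% ± 4.1 in the edited clone. With all exon bases as the length it was 51.1%, 27.8% and 51.5%, so which aldolase led in K562 and in the edited clone depends on the length, while the share was lowest in the selected clone by either length.

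**Figure D2:**
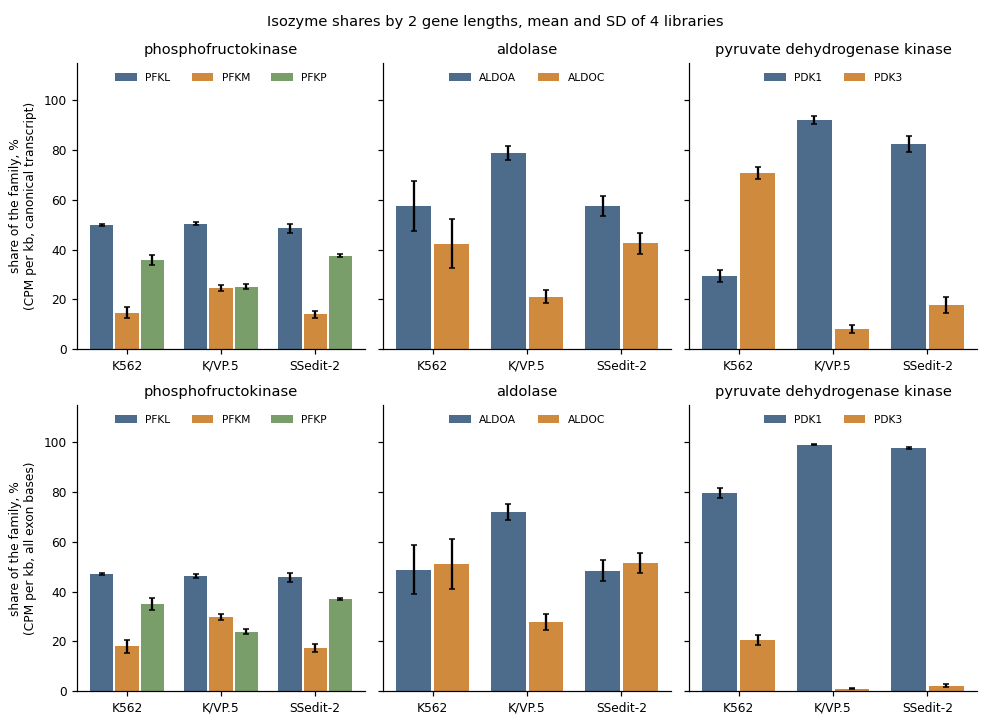
Shares of each isozyme in the CPM per kb of its family (y axis, percent) in the 3 lines, as mean and SD of 4 libraries, for phosphofructokinase, aldolase and pyruvate dehydrogenase kinase, with the canonical transcript (top) or all exon bases (bottom) as the gene length. The PFKM share is highest, and the ALDOC and PDK3 shares lowest, in the selected clone in both rows, whereas PDK3 in K562 is 70.7% in the top row and 20.4% in the bottom row.

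TPI1 and GAPDH stand at the middle of the pathway. TPI1, which makes both triose phosphates usable, ranged from 881 to 1130 CPM in K562, from 1206 to 1281 CPM in K/VP.5 and from 977 to 1143 CPM in K562/SSedit-2. It was higher in K/VP.5 by 0.29 (adjusted p = 0.00558, edgeR), and K562/SSedit-2 was lower than K/VP.5 by a log2 change of -0.25 (adjusted p = 0.0143, edgeR). GAPDH (chr12:6534512-6538374, plus strand), often used as a loading control, was at 1537, 888, 791 and 807.5 CPM in K562, at 797.5, 841, 835 and 746 CPM in K/VP.5, and at 967, 967, 836 and 878.5 CPM in K562/SSedit-2. K562 replicate 1 was 1.85 times the mean of the other 3 K562 libraries.

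The log2 fold change of GAPDH in K/VP.5 against K562 was -0.32 (standard error 0.16, adjusted p = 0.11, edgeR). It was -0.06 without K562 replicate 1 (adjusted p = 0.464, edgeR), and it passed without K562 replicate 2, 3 or 4, at -0.40, -0.44 and -0.43 (adjusted p = 0.074, 0.0323 and 0.0369, edgeR). It also passed at -0.32 with RLE scaling and with DESeq2 (adjusted p = 0.0994 and 0.0954), at -0.34 with no filter and at -0.28 with the replicate block (adjusted p = 3.8e-05 and 0.0886, edgeR). Without K562 replicate 1, in K562/SSedit-2 against K562 it turned from -0.14 to 0.14 (adjusted p = 0.661 and 0.18, edgeR). In K562/SSedit-2 against K/VP.5 it was 0.18 (adjusted p = 0.373, edgeR), and with K562 replicate 1 out of the shared estimate of spread it was 0.20 (adjusted p = 0.00922, edgeR). Of the pseudogenes annotated for GAPDH, 65 were in the table and together held 0.281% to 0.509% of the parent count.

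Of the enzymes between GAPDH and pyruvate, PGK1, PGAM1 and PKM were lower and ENO2 higher in the selected clone, and ENO1 and ENO3 did not pass. PGK1, which makes the first ATP of the pathway, ranged from 619.8 to 786 CPM in K562, from 505 to 672 CPM in K/VP.5 and from 681 to 807 CPM in K562/SSedit-2. PGAM1, the mutase that moves the phosphate of 3-phosphoglycerate, ranged from 495 to 658, from 264 to 307 and from 529.7 to 623 CPM. PKM, pyruvate kinase of most tissues, ranged from 1477 to 1713, from 1180.0 to 1520.0 and from 1350.0 to 1634 CPM. In K/VP.5 against K562, the log2 fold changes were -0.29 for PGK1, -0.93 for PGAM1 and -0.31 for PKM (adjusted p = 0.016, 1.89e-07 and 0.006, edgeR). In K562/SSedit-2 against K/VP.5 they were 0.37, 0.98 and 0.19 (adjusted p = 0.00267, 9.41e-08 and 0.0695, edgeR), and that of PKM did not pass without K/VP.5 replicate 4, K562/SSedit-2 replicate 1 or K562/SSedit-2 replicate 3. The K/VP.5 libraries of PGAM1 did not overlap those of the other lines. Its change lay so close to 2-fold that it crossed that line without K562 replicate 4 in K/VP.5 against K562 (-1.0), and in 9 of the 12 fits without a single library in K562/SSedit-2 against K/VP.5 (1.0 to 1.03).

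Enolase turns 2-phosphoglycerate into phosphoenolpyruvate. ENO1, the ubiquitous form, held 98.9% to 99.3% of the CPM per kb of the family, and was at 3178, 2846, 2723 and 2624 CPM in K562, at 2973, 3141, 3095 and 2943 CPM in K/VP.5, and at 2888, 2761, 2865 and 2728 CPM in K562/SSedit-2. No comparison of ENO1 passed (adjusted p = 0.221, 0.916 and 0.148, edgeR), although 0.13 in K/VP.5 against K562 did without K562 replicate 1 (adjusted p = 0.0385, edgeR). ENO2 (chr12:6913745-6923698, plus strand), the neuronal form, was at 8.41, 8.10, 7.16 and 5.42 CPM in K562, at 26.1, 30.9, 28.1 and 23.5 CPM in K/VP.5, and at 21.2, 17.9, 17.8 and 13.5 CPM in K562/SSedit-2. All libraries of both derived lines lay above all K562 libraries, and those of K/VP.5 above those of K562/SSedit-2.

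ENO2 was 3.74-fold higher in K/VP.5 (log2 fold change 1.90, standard error 0.15, adjusted p = 2.22e-08, edgeR) and 2.42-fold higher in K562/SSedit-2 (1.28, standard error 0.15, adjusted p = 3.65e-05, edgeR) than in K562. K562/SSedit-2 was lower than K/VP.5 by a log2 change of -0.63 (adjusted p = 0.00155, edgeR). Its share of the enolases per kb was nevertheless 0.196% in K562, 0.685% in the selected clone and 0.48% in the edited clone. ENO3, the muscle form, ranged from 9.72 to 15.5 CPM over all libraries and passed in no comparison.

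LDHA, which reduces pyruvate to lactate, was at 2163, 1868, 1725 and 1384 CPM in K562, at 1152, 1358, 1266 and 981 CPM in K/VP.5, and at 1918, 1819, 1772 and 1632 CPM in K562/SSedit-2. All K/VP.5 libraries lay below all others. LDHA was 1.5-fold lower in the selected clone than in K562 (log2 fold change -0.59, standard error 0.12, adjusted p = 0.000586, edgeR), and K562/SSedit-2 was higher than K/VP.5 by 0.59 (adjusted p = 0.000553, edgeR). Between K562/SSedit-2 and K562 the log2 fold change was 0.00 (adjusted p = 1.0, edgeR). LDHB, the form that favours pyruvate, ranged from 68.5 to 83.4 CPM in K562, from 78.2 to 85.9 CPM in K/VP.5 and from 85.4 to 99.5 CPM in K562/SSedit-2. Its log2 fold change in K562/SSedit-2 against K562 was 0.27 (adjusted p = 0.0357, edgeR), which did not pass without K562 replicate 2 or without K562/SSedit-2 replicate 4 (adjusted p = 0.118 and 0.116, edgeR).

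Of the 18 enzymes, 5 were higher and 6 lower in the selected clone than in K562, 2 were higher in K562/SSedit-2 than in K562, and 6 were higher and 5 lower in the edited clone than in K/VP.5. Over all genes the shares higher and lower were 26.2% and 26.1%, 4.86% and 7.79%, and 26.2% and 27.8% in these comparisons. Their summed expression was between 11360 and 14258 CPM in the 12 libraries, or 1.16% to 1.35% of all counts, and the sums of the 3 lines overlapped.

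**Figure D3:**
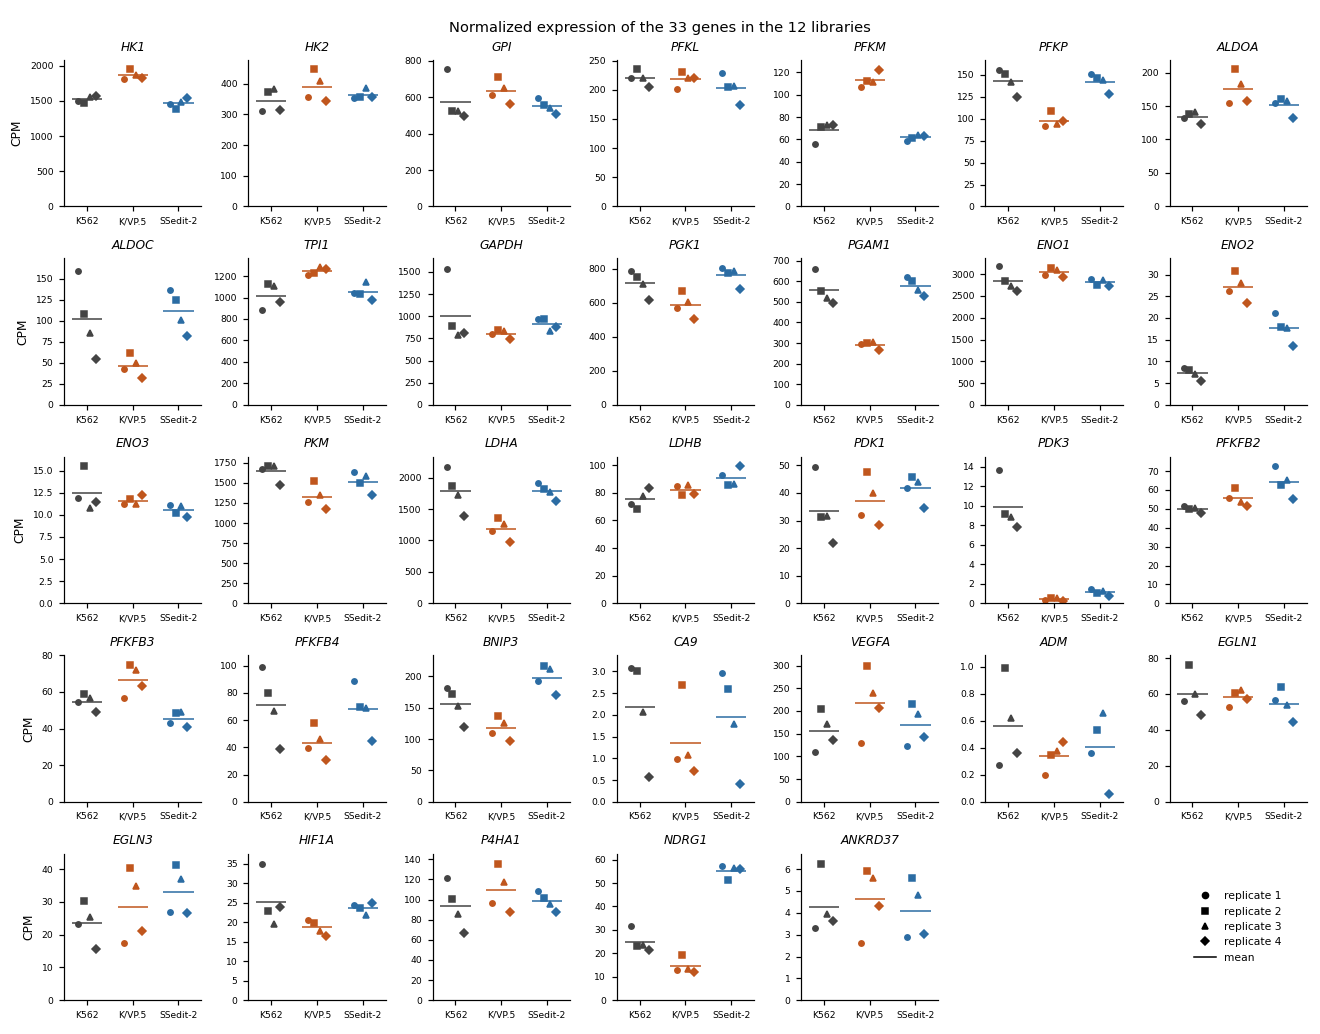
CPM (y axis, from 0) of the 33 genes in the 12 libraries, in K562, K/VP.5 and the edited clone (x axis). Symbols give the replicate number and lines the means. In the panel of NDRG1 the K562/SSedit-2 libraries sit between 51.2 and 57.3 CPM, above all others, and in that of PDK3 all 8 libraries of the derived lines sit at or below 1.45 CPM.

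Among the kinases, PDK3 differed most. PDK3 (chrX:24465244-24550466, plus strand) encodes a pyruvate dehydrogenase kinase that is known to respond to HIF, and was at 13.7, 9.12, 8.83 and 7.80 CPM in K562, at 0.300, 0.559, 0.550 and 0.237 CPM in K/VP.5 (7 to 21 counts per library), and at 1.45, 1.10, 1.22 and 0.716 CPM in K562/SSedit-2 (24 to 52 counts). None of the 3 lines overlapped another. PDK3 was 23.5-fold lower in K/VP.5 (log2 fold change -4.55, standard error 0.27, adjusted p = 8.02e-10, edgeR) and 8.74-fold lower in K562/SSedit-2 (-3.13, standard error 0.24, adjusted p = 3.71e-07, edgeR) than in K562. K562/SSedit-2 was above K/VP.5 by 1.43 (standard error 0.31, adjusted p = 0.00124, edgeR).

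PDK1, the kinase best known for shutting pyruvate dehydrogenase under hypoxia, was at 49.3, 31.3, 31.6 and 21.8 CPM in K562, at 32.1, 47.6, 40.1 and 28.3 CPM in K/VP.5, and at 42.0, 45.9, 44.1 and 34.6 CPM in K562/SSedit-2. It passed in no comparison (log2 values of 0.15, 0.32 and 0.17, adjusted p = 0.577, 0.378 and 0.514, edgeR). Without K562 replicate 1, the changes against K562 were 0.37 in K/VP.5 and 0.56 in the edited clone (adjusted p = 0.0561 and 0.0223, edgeR). That library was the highest of the 12 for PDK1. The annotated lengths of PDK3 differ widely, at 1741 bases for the canonical transcript and 17456 for all exon bases, so which of PDK1 and PDK3 had the higher level per kb in K562 depends on the length. The PDK3 share per kb of both was 70.7% ± 2.4, 8.0% ± 1.6 and 17.7% ± 3.2 (SD, n = 4) in K562, the selected clone and the edited clone by the shorter length, and 20.4% ± 2.0, 0.909% ± 0.2 and 2.22% ± 0.48 by the longer.

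The PFKFB enzymes make and break fructose 2,6-bisphosphate, and PFKFB3 and PFKFB4 are known HIF targets. Per length, PFKFB4 made up 50% of the CPM per kb of the 3 in K562, 34.9% in the selected clone, where PFKFB3 was higher at 42.4%, and 49.7% in the edited clone, and the order was the same with all exon bases as the length. PFKFB4 was at 99.2, 79.6, 66.7 and 39.1 CPM in K562, at 39.3, 57.8, 46.3 and 30.6 CPM in K/VP.5, and at 88.9, 69.9, 68.7 and 44.6 CPM in K562/SSedit-2. The lines overlapped, and replicate 4 was the lowest library in each. PFKFB4 was lower in K/VP.5 by a log2 change of -0.71 (standard error 0.25, adjusted p = 0.0283, edgeR), or -0.53 without K562 replicate 1 (adjusted p = 0.0654, edgeR). Without the number 1 libraries of all 3 lines it was -0.46 and did not pass (adjusted p = 0.132, edgeR). The edited clone was above K/VP.5 by 0.64 (adjusted p = 0.0431, edgeR). Without K/VP.5 replicate 4 or K562/SSedit-2 replicate 1, this change was 0.52 or 0.51 and did not pass (adjusted p = 0.111 and 0.125, edgeR).

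PFKFB2 ranged from 47.8 to 51.6 CPM in K562, from 51.7 to 61.1 CPM in K/VP.5 and from 55.3 to 72.7 CPM in K562/SSedit-2. It was higher in K562/SSedit-2 than in K562 by 0.36 (standard error 0.081, adjusted p = 0.0122, edgeR). Against K/VP.5 it was 0.20 (adjusted p = 0.0516, edgeR), and did not pass without K/VP.5 replicate 4 or K562/SSedit-2 replicate 1 (0.18 and 0.16, adjusted p = 0.113 and 0.128, edgeR). PFKFB3, the form with the strongest kinase activity, ranged from 49.0 to 58.7 CPM in K562, from 56.6 to 74.6 CPM in K/VP.5 and from 40.7 to 48.9 CPM in K562/SSedit-2. Its libraries in K562/SSedit-2 lay below all others. It was higher in K/VP.5 than in K562 by 0.28 (adjusted p = 0.0196, edgeR), and lower in the edited clone than in K/VP.5 by a log2 change of -0.56 (adjusted p = 0.000115, edgeR). Against K562, the change of -0.27 in K562/SSedit-2 (adjusted p = 0.0894, edgeR) did not pass when any of 8 single libraries was left out (K562 replicates 2 and 3, K/VP.5 replicates 2, 3 and 4, or K562/SSedit-2 replicates 1, 2 and 4), with values of -0.29 to -0.21.

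Of the oxygen sensing genes, HIF1A encodes the oxygen-regulated subunit of HIF-1. It was at 34.9, 23.0, 19.4 and 23.9 CPM in K562, at 20.7, 19.7, 17.7 and 16.6 CPM in K/VP.5, and at 24.4, 23.7, 21.9 and 25.0 CPM in K562/SSedit-2. HIF1A was lower in the selected clone than in K562 by a log2 change of -0.44 (standard error 0.14, adjusted p = 0.0168, edgeR), and by -0.26 without K562 replicate 1 (adjusted p = 0.0245, edgeR). Between the edited clone and K562 it turned from -0.09 to 0.10 without that library (adjusted p = 0.762 and 0.494, edgeR). K562/SSedit-2 was higher than K/VP.5 by 0.35 (adjusted p = 0.0515, edgeR), or 0.30 without K/VP.5 replicate 4, which did not pass (adjusted p = 0.109, edgeR). HIF1A shares exon bases with 3 annotated genes, among them the antisense genes HIF1A-AS1 and HIF1A-AS3, and HIF-1α is regulated mainly as a protein, which was not measured in these files.

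The ranges of both prolyl hydroxylases overlapped between lines. EGLN1 ranged from 48.4 to 76.1 CPM in K562, from 52.6 to 62.3 CPM in K/VP.5 and from 44.1 to 63.7 CPM in K562/SSedit-2, and EGLN3, itself a HIF target, from 15.7 to 30.3, from 17.4 to 40.3 and from 26.7 to 41.4 CPM. EGLN1 passed in no comparison. EGLN3 had values of 0.26, 0.48 and 0.22 on the log2 scale (adjusted p = 0.407, 0.259 and 0.493, edgeR), and in the fit blocked on replicate number, 0.48 in K562/SSedit-2 against K562 passed (adjusted p = 0.0201, edgeR).

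NDRG1 differed most among the hypoxia targets. It is induced by hypoxia, by iron shortage and during differentiation, and was at 31.5, 23.2, 23.5 and 21.3 CPM in K562, at 12.8, 19.3, 13.3 and 12.2 CPM in K/VP.5, and at 57.3, 51.2, 56.5 and 55.9 CPM in K562/SSedit-2. None of the lines overlapped. NDRG1 was 2.22-fold higher in K562/SSedit-2 than in K562 (log2 fold change 1.15, standard error 0.14, adjusted p = 4.3e-05, edgeR) and 3.83-fold higher than in K/VP.5 (1.94, standard error 0.14, adjusted p = 9.24e-09, edgeR). In K/VP.5 it was lower than in K562 by a log2 change of -0.78 (standard error 0.14, adjusted p = 0.000202, edgeR). The edited clone and the etoposide-selected clone thus lay on opposite sides of K562 for this gene.

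BNIP3, a mitophagy receptor, ranged from 118.5 to 181 CPM in K562, from 97.3 to 137 CPM in K/VP.5 and from 170.0 to 217 CPM in K562/SSedit-2. It was lower in the selected clone than in K562 by a log2 change of -0.41 (adjusted p = 0.0145, edgeR), and K562/SSedit-2 was higher than K/VP.5 by 0.75 (adjusted p = 0.000118, edgeR). Against K562, BNIP3 in K562/SSedit-2 was 0.34 (adjusted p = 0.109, edgeR), and 0.35 in the fit blocked on replicate number, which passed (adjusted p = 0.00892, edgeR), as did 0.42 without K562 replicate 1 (adjusted p = 0.0266, edgeR). The 44 annotated pseudogenes of BNIP3 in the table held 2.51% to 3.93% of its count.

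VEGFA, the angiogenic growth factor, was at 109, 204, 172 and 135.5 CPM in K562, at 129.8, 298, 239 and 206 CPM in K/VP.5, and at 124, 216, 193 and 143 CPM in K562/SSedit-2. In each line the library numbered 1 was lowest and the library numbered 2 highest, and the lines overlapped. Its log2 fold change in K/VP.5 was 0.49 (standard error 0.23, adjusted p = 0.0948, edgeR). The call was lost without K562 replicate 1, 3 or 4, without K/VP.5 replicate 2, 3 or 4, or without K562/SSedit-2 replicate 4, with 0.33 (adjusted p = 0.225, edgeR) without K562 replicate 1 and 0.30 (adjusted p = 0.329, edgeR) without K/VP.5 replicate 2.

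P4HA1, a collagen prolyl hydroxylase subunit, was at 122, 100.4, 85.5 and 66.9 CPM in K562, at 96.2, 135, 117.5 and 88.1 CPM in K/VP.5, and at 108, 102, 95.7 and 87.4 CPM in K562/SSedit-2. It passed in no comparison, although 0.24 in K/VP.5 against K562 did with the replicate block (adjusted p = 0.094, edgeR), and without K562 replicate 1 it was higher in K/VP.5 than in K562 by 0.35 (adjusted p = 0.0384, edgeR), and the change in K562/SSedit-2 against K562 went from 0.07 to 0.22 (adjusted p = 0.845 and 0.293, edgeR). CA9, a surface carbonic anhydrase and a classical marker of hypoxic tumour cells, was at 3.08, 3.02, 2.07 and 0.559 CPM in K562, at 0.975, 2.69, 1.07 and 0.712 CPM in K/VP.5, and at 2.96, 2.6, 1.78 and 0.418 CPM in K562/SSedit-2. The replicate 4 library was lowest in each line, at 14 to 23 counts. CA9 passed in no comparison (log2 fold changes of -0.66, -0.16 and 0.50 with standard errors of 0.51 to 0.54). In K/VP.5 against K562 it passed with the replicate block (-0.66, adjusted p = 0.0578, edgeR), without K562 replicate 4 (-1.0, adjusted p = 0.0945, edgeR) or without K/VP.5 replicate 2 (-1.22, adjusted p = 0.0935, edgeR).

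ADM, the vasodilator peptide adrenomedullin, was close to the detection limit at 0.275, 0.990, 0.619 and 0.365 CPM in K562, 0.200, 0.346, 0.377 and 0.441 CPM in K/VP.5, and 0.363, 0.536, 0.657 and 0.0597 CPM in K562/SSedit-2. The lowest of these was 2 counts. No comparison of ADM passed, although -1.0 in K/VP.5 against K562 did without K562 replicate 1 (adjusted p = 0.0878, edgeR). ANKRD37, a small HIF target, ranged from 2.62 to 6.21 CPM over all libraries and passed in no comparison either.

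K562 replicate 1 lay outside the range of the other 3 K562 libraries, and at a log2 distance of over 0.5 from their mean, for 11 of the 33 genes. The gap to the nearest library could be far smaller, as for CA9 at 3.079 against 3.015 CPM. It was above them for GPI, ALDOC, GAPDH, PDK1, PDK3, PFKFB4, CA9, HIF1A and P4HA1, and below them for VEGFA and ADM. Over all tested genes, 9.29% were above in this way and 7.11% below. The distance was 0.99 for ALDOC, 0.89 for GAPDH, 0.81 for PDK1, 0.75 for CA9 and 0.74 for PFKFB4, which placed these 5 genes between the 96.9th and 99.0th percentile of all tested genes. At the other end, VEGFA was at -0.62 and ADM at -0.54. With upper-quartile scaling, or with library size alone, 8 genes in place of 11 lay outside.

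**Figure D4:**
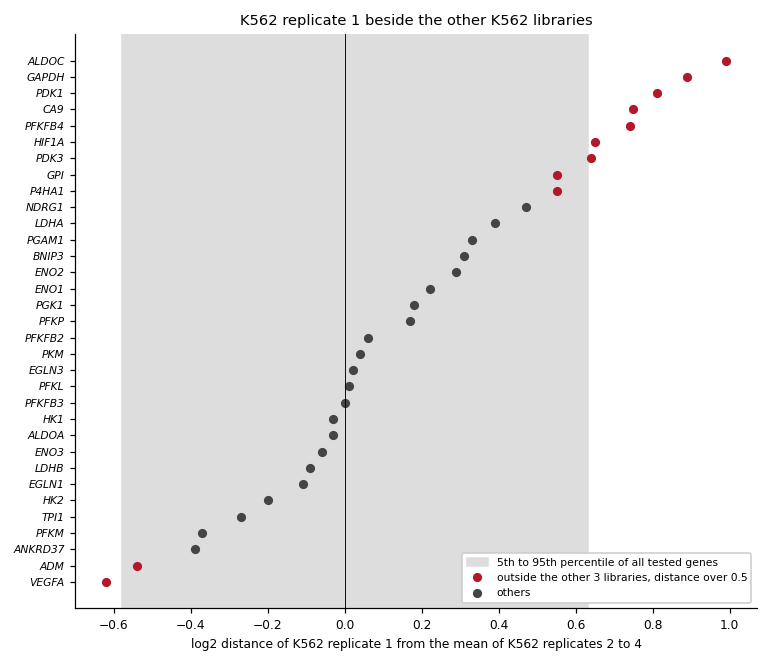
Log2 distance of K562 replicate 1 from the mean of the other 3 K562 libraries (x axis) for the 33 genes, in order of distance. The grey band is the 5th to 95th percentile of all 18626 tested genes (-0.578 to 0.631). ALDOC, at 0.99, is farthest to the right and VEGFA, at -0.62, farthest to the left.

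Hypoxia targets did not move together in this library. ALDOC, PDK1, PFKFB4, CA9, P4HA1, NDRG1 (0.47) and BNIP3 (0.31) were above while VEGFA, ADM and ANKRD37 (-0.39) were below, and EGLN3 (0.02) and PFKFB3 lay within the other libraries. The median distance was 0.03 over all tested genes and above 0 in every list of genes outside the 33 that was examined, those unrelated to hypoxia or glucose included. It was 0.13 over 33 other hypoxia targets, 0.33 over 8 glucose and lactate transporters, 0.46 over 13 regulators of the HIF pathway and 0.69 over 4 glucose-sensing targets. The medians of other lists were 1.31 over the 13 mitochondrially encoded genes, 0.50 over 14 replication-dependent histone genes, 0.23 over 20 genes of G2 and M phase, 0.21 over 13 ATF4 targets, 0.21 over 7 markers of other cell types and 0.07 over 11 genes of K562 identity. With genes sorted by the length of the canonical transcript into 4 bins of like size, the median distance was -0.07 in the shortest bin and 0.10 in the longest. The part of the mitochondrial counts or of transcript length in these distances was not tested.

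The libraries that carry the number 4 were low for many of these genes in all 3 lines. For 15 of the 33 genes the number 4 library was the lowest of its line in K562, K/VP.5 and the edited clone alike, which was so for 2.69% of all tested genes. They were GPI, ALDOC, PGK1, PGAM1, ENO1, ENO2, PKM, LDHA, PDK1, PDK3, PFKFB2, PFKFB4, BNIP3, CA9 and P4HA1, or 8 of the 18 glycolytic enzymes, 4 of the 5 kinases, 3 of the 7 hypoxia targets and 0 of the 3 oxygen sensing genes. This pattern was chosen after the values were seen and has no test.

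ALDOC illustrates the size of the difference, since its number 4 libraries were at 55.1, 32.4 and 82.0 CPM, whereas the highest library of the same lines was at 160.0, 61.7 and 137 CPM. The median log2 distance of the 33 genes in the number 4 library from the mean of the other 3 was -0.25 in K562, -0.19 in the selected clone and -0.22 in the edited clone, where the medians over all tested genes were -0.024, -0.0038 and -0.0072. Of the 33 genes, 3, 5 and 5 lay above that mean. In K/VP.5 replicate 1 the count was 4, at a median distance of -0.10. Total counts of the number 4 libraries were 40010995 in K562, 28981722 in the selected clone, the lowest of the 12, and 34025528 in K562/SSedit-2.

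Other numbers gave smaller counts. The number 2 library was highest in all 3 lines for VEGFA, EGLN3 and ANKRD37, against 2.06% of all tested genes, and the number 1 library was lowest in all 3 lines for PFKM, VEGFA and ANKRD37, against 5.25% of all tested genes. These groups of genes overlapped within single lines, since EGLN3 was also lowest in number 4 in K562 and in the edited clone, and BNIP3, CA9, PDK1, ALDOC and P4HA1 were highest in number 2 in K/VP.5. DDIT4, a stress-induced inhibitor of mTORC1 that is also a HIF target but not one of the 33 genes, had the same order as VEGFA and was named after its values were seen. It was at 48.7, 197, 163 and 78.4 CPM in K562, at 19.9, 189, 161 and 118 CPM in K/VP.5, and at 26.5, 164, 148 and 76.3 CPM in K562/SSedit-2. What the numbers stand for is not given in the labels, and their part in these values was not tested.

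**Figure D5:**
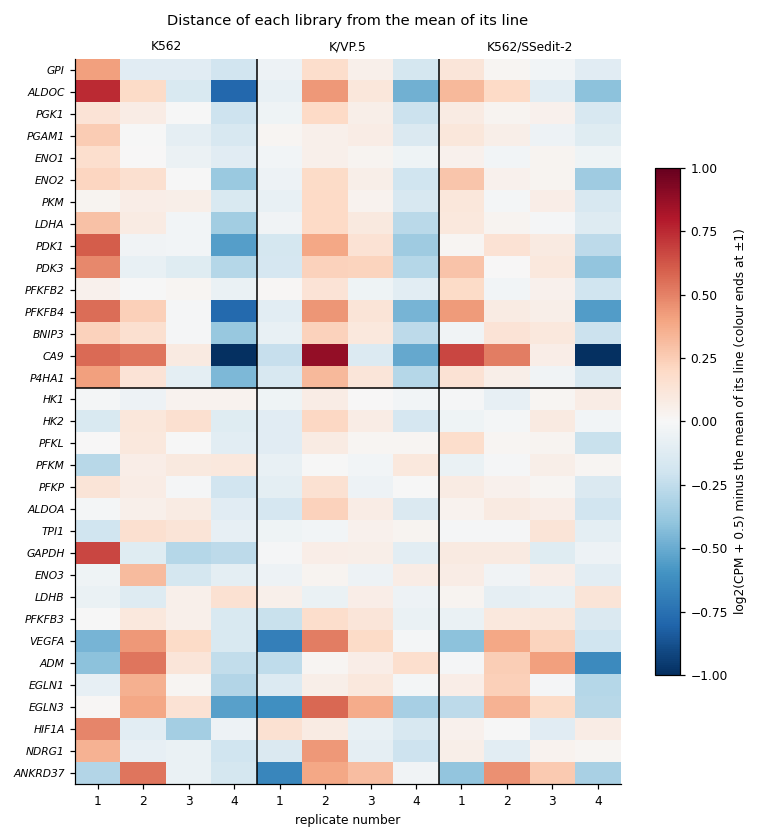
Log2 distance of each library from the mean of its line (colour, red above and blue below) for the 33 genes (rows) and the 12 libraries (columns, by line and replicate number). The 15 genes above the line are lowest in the number 4 library of all 3 lines, and VEGFA, EGLN3 and ANKRD37 are highest in number 2.

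The spread between libraries of a line was compared above a floor of 10 CPM, without matching the level of expression above it. The median coefficient of variation over the 29 of the 33 genes with a mean of at least 10 CPM over all libraries was 16.8% in K562, 11% in the selected clone and 7.32% in the edited clone. Over all 8882 genes of at least 10 CPM it was 9.67%, 5.9% and 7.39%, so that the median of these genes was the higher in K562 and K/VP.5 but not in K562/SSedit-2.

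The number 4 pattern was looked for in the wider lists as well, beside the 2.69% of all tested genes. It held for 5 of 33 other hypoxia targets (BNIP3L, KDM4B, WSB1, AK4 and RAB20), for 2 of 8 glucose and lactate transporters (SLC2A1 and BSG), for 2 of 4 glucose-sensing targets (TXNIP and ARRDC4), and for PYGL as the only gene of the glycogen list. It held for 0 of 9 other glycolysis genes, 0 of 9 genes of pyruvate dehydrogenase and its regulators and 0 of 13 regulators of the HIF pathway. Among lists unrelated to glucose or hypoxia, it held for 1 of 11 genes of K562 identity (TFRC) and 1 of 7 markers of other cell types (PECAM1), and for 0 of 20 genes of G2 and M phase, 0 of 14 histone genes, 0 of 13 ATF4 targets and 0 of 13 mitochondrially encoded genes.

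Of the 8 transporters of glucose and lactate tested, 2 were higher and 2 lower than in K562, against 26.2% and 26.1% of all genes, and in the edited clone 2 were higher and 1 lower, against 4.86% and 7.79%. SLC2A1, the main glucose transporter of blood cells, was at means of 274, 248 and 333 CPM in K562, K/VP.5 and the edited clone, with log2 fold changes of -0.15 (adjusted p = 0.166, edgeR) in K/VP.5 and 0.28 (adjusted p = 0.0539, edgeR) in the edited clone against K562. SLC2A3, a transporter of high glucose affinity, was lower in the selected clone than in K562 by a log2 change of -1.19 (adjusted p = 7.99e-05, edgeR), and so was the lactate exporter SLC16A3 by -1.57 (adjusted p = 2.38e-06, edgeR). The lactate transporter SLC16A1 was higher there by 0.77, at means of 260.0 and 442 CPM, and its partner BSG by 0.31 (adjusted p = 8.44e-09 and 0.00394, edgeR). Of the 4 glucose-sensing targets and regulators tested, 1 was higher and 2 lower in the selected clone, against the shares of all genes above. TXNIP and ARRDC4, arrestins that curb glucose uptake and are induced by glucose through MondoA, were also lower in K/VP.5, by log2 changes of -1.02 and -3.09 (adjusted p = 2.54e-05 and 1.23e-06, edgeR). MLXIPL, the glucose-responsive factor ChREBP, was higher by 1.44 (adjusted p = 5.08e-05, edgeR), at means of 1.90 and 5.15 CPM.

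Glycogen genes that passed 2-fold were lower in K/VP.5. These were GYS1 (glycogen synthase) and PPP1R3C (a glycogen-targeting phosphatase subunit), which were lower than in K562, GYS1 by a log2 change of -1.16 (adjusted p = 1.22e-07, edgeR) and PPP1R3C from a mean of 7.5 CPM to 0.0554 CPM, near the detection limit (adjusted p = 2.34e-13, edgeR). At any fold, 4 of the 10 glycogen genes tested were lower and 1 higher, against 26.1% and 26.2% of all genes. Among the 9 other glycolysis genes tested, 4 were higher and 3 lower in the selected clone, against 26.2% and 26.1% of all genes. PKLR, the liver and red cell pyruvate kinase, was higher in K/VP.5 by 1.47 and TIGAR, a fructose bisphosphatase, by 2.13 (adjusted p = 4.14e-07 and 2.21e-06, edgeR). HKDC1 was also higher, by 2.01 (adjusted p = 0.0005, edgeR), from a mean of 0.138 CPM in K562 to 0.573 CPM, and so was BPGM by 0.24 (adjusted p = 0.0858, edgeR). PGAM4, PGM2 and ADPGK were lower, by log2 changes of -0.72, -0.64 and -0.19 (adjusted p = 3.15e-05, 2.11e-05 and 0.0205, edgeR).

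Among pyruvate dehydrogenase and its regulators, PDK2, another kinase of the complex, was higher in K/VP.5 than in K562 by 1.69 (adjusted p = 1.92e-06, edgeR), at means of 1.30 and 4.16 CPM, and at 1.71 CPM in K562/SSedit-2. The change of PDK3 in this line was in the opposite direction. MPC1, a subunit of the mitochondrial pyruvate carrier, was higher in the edited clone than in K/VP.5 by 1.06 (adjusted p = 1.75e-05, edgeR). Of the 9 genes tested, 2 were higher and 2 lower in the selected clone than in K562, against 26.2% and 26.1% of all genes, and 0 passed in K562/SSedit-2 against K562.

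The wider list of hypoxia targets was also mixed. Of 33 other targets tested, 8 were higher and 7 lower in the selected clone than in K562 (26.2% and 26.1% of all genes), and 2 were higher and 2 lower in K562/SSedit-2 (4.86% and 7.79% of all genes), with median log2 fold changes of 0.13 and 0.07. Past 2-fold, 5 were higher in K/VP.5 (PLOD2 by 3.08, AK4 by 1.64, TMEM45A by 1.53, ANGPTL4 by 1.47 and GADD45B by 1.47) and 0 were lower, against 8.98% and 6.66% of all genes. In K562/SSedit-2, PLOD2 was lower than in K562, at 0.307 CPM or less against 2.03 to 3.25 CPM (adjusted p = 2.08e-06, edgeR), and CA12 was lower by a log2 change of -1.26 at means of 0.180 and 0.437 CPM (adjusted p = 0.0655, edgeR). DDIT4, BNIP3L and KDM3A, which are widely used as HIF reporters, did not pass against K562 in either clone. Their log2 fold changes were 0.00, 0.15 and 0.13 for the selected clone, and -0.23, 0.05 and 0.10 for the edited clone. Of 13 regulators of the HIF pathway, 1 was higher and 5 lower in the selected clone, against 26.2% and 26.1% of all genes. In the edited clone 3 were higher than in K562 (EPAS1 by 0.70, ELOC by 0.28 and RBX1 by 0.42) and 1 was lower (VHL, by a log2 change of -0.27), against 4.86% and 7.79% of all genes. HIF3A, an inhibitory member of the HIF-α family, was at 20.7 to 24.9 CPM in K/VP.5 and at 0.330 CPM or less in the other 8 libraries (adjusted p = 4.19e-12 against K562, edgeR).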

How the data were processed

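RNA was sequenced as 150-bp paired reads from 12 libraries, 4 of K562 cells, 4 of the K/VP.5 clone and 4 of the K562/SSedit-2 clone. The counts per gene were deposited by the authors, who aligned reads to GRCh38 with HISAT 2.1.0 and counted them with featureCounts. The annotation release, strandedness and treatment of multiply matching reads are not given in the sources used here, so genes that share exon bases (22 of the 33) or have pseudogenes can hold reads of their partners. Gene positions and lengths came from GENCODE 44, in which 60401 of the 60671 gene IDs were found. Upstream sequences came from RefSeq (GRCh38.p14).

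Genes that passed filterByExpr (minimum count of 10) were scaled by TMM and fitted over all 12 libraries with edgeR 4.0.16 in R 4.3.3 (glmQLFit and glmQLFTest), with Benjamini-Hochberg adjustment over 18626 genes. A call needed an adjusted p under 0.1, with or without a 2-fold change. Standard errors are those implied by the F statistic. Distances between libraries are on the log2 scale of CPM plus 0.5, and levels of different genes were compared only per kb of the canonical transcript, with all exon bases as an alternative length added after seeing the data. The 33 genes and the wider lists were chosen with earlier results of these data known, and each gene of the 33 is named whatever its values, while genes of the wider lists are examples. The scripts were tested on simulated data.

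Total counts were 28981722 to 43648830 per library, so that 3 counts, the limit that a count of 0 allows, were 0.0691 to 0.102 CPM. These limits cover counting error only. No pair of libraries of a line agreed within sampling noise (chi-square per degree of freedom of 5.39 to 65.6). Deviations of same-numbered libraries of K562 and K562/SSedit-2 from their line means correlated over genes at 0.38, 0.23, 0.36 and 0.23. Libraries of unlike number correlated at -0.42 to 0.24. The fit blocked on the number is given where it changes a call between these lines. The 23 alternatives, 1 of them chosen after seeing the data, comprised other scalings, tests (DESeq2 1.42.0 and limma 3.58.1), filters and thresholds, and leaving out libraries. The results of 1 wider list are not reported here.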

Additional observations from a re-analysis of the deposited data

Results flagged for a closer look

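In 5 of 99 groups of 4 libraries (33 genes in 3 lines), 1 library lay apart from the other 3 by Dixon's criterion at 95% (the gap to the nearest library as a share of the range). Chance alone would flag about 1 in 20 independent groups. The 99 groups share 12 libraries and are not independent, so the number cannot be judged by that rate. K562 replicate 1 accounted for 3 of the 5. It was highest for GAPDH at 1537 CPM (791.2 to 888.3 CPM in the other 3), highest for GPI at 753.8 CPM (497.2 to 525.0 CPM) and lowest for PFKM at 56.11 CPM (71.4 to 73.14 CPM). HK2 was highest in K562/SSedit-2 replicate 3 at 386.2 CPM (352.5 to 358.1 CPM), and NDRG1 was highest in K/VP.5 replicate 2 at 19.31 CPM (12.23 to 13.29 CPM).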

How the results depend on the processing

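Depth limits the statements on ADM, CA9 and PDK3, whose lowest libraries held 2, 14 and 7 counts, and with 4 libraries of 1 clone a line the spread between clones is not measured. Over the 33 genes and 23 alternatives, ADM not being tested at 1 CPM in 4 samples, direction and side of the threshold were kept in 692 cases in K/VP.5 against K562, 668 in K562/SSedit-2 against K562 and 694 in K562/SSedit-2 against K/VP.5, while calls were lost in 12, 13 and 24 cases, gained in 43, 26 and 37, and direction turned in 11, 51 and 3. No gene was called in opposite directions. The 2-fold count in K/VP.5 against K562, 3, was 2 to 5 when single libraries were left out, and the call of VEGFA at any fold was lost with DESeq2, limma voom and the fit of 2 lines (adjusted p = 0.157, 0.124 and 0.11). The count of 6 at any fold in K562/SSedit-2 against K562 was 13 in the replicate block without K562 number 1, an alternative added after seeing the data, in which 18.4% of all genes passed. By the labels, libraries of different lines share only a number. With the replicate block the counts at any fold were 8 in K562/SSedit-2 against K562 (16.4% of all genes passing), 23 in place of 18 in K/VP.5 against K562 (55.1% in place of 52.3%) and 22 in place of 18 in K562/SSedit-2 against K/VP.5 (56.7% in place of 54.0%). The 2-fold counts were 3 in each. The calls gained in K/VP.5 against K562 were HK2, GAPDH, PFKFB2, CA9 and P4HA1 (adjusted p = 0.0364 to 0.094, edgeR). Those gained in K562/SSedit-2 against K/VP.5 were GPI, LDHB, EGLN3 and VEGFA (adjusted p = 0.0697, 0.0942, 0.0877 and 0.000966, edgeR). Besides BNIP3 and EGLN3 no call of K562/SSedit-2 against K562 changed with the block. Over all genes, the 2-fold counts went from 2914, 384 and 2945 to 1923, 246 and 1972 with at least 1 CPM in 4 samples, fewer genes being tested, and to 566 for K562/SSedit-2 against K562 without a filter. Its count at any fold, 2356, was 1469 in the fit of 2 lines, 1471 at an adjusted p under 0.05, 3710 without K562 replicate 1, 1352 without K562 replicate 2 and 1443 without K562/SSedit-2 replicate 4. Of changes that turned in sign, which were not called in the direction that turned, the cause was not tested. With upper-quartile scaling the log2 fold change was 0.05 for PFKL and 0.02 for EGLN1 in K/VP.5 against K562, and 0.02 for PFKP and 0.02 for ENO1 in K562/SSedit-2 against K562. With the filter at 1 CPM it was 0.01 for PFKL, 0.01 for PFKP and 0.00 for ENO1. Without a filter LDHA was -0.02, with 2 lines PFKP was 0.00, and with voom ADM was -0.06 in K562/SSedit-2 against K/VP.5. Without number 1 of all lines PFKL was 0.02 in K/VP.5 against K562, and in K562/SSedit-2 against K562 GPI was 0.05, PFKP 0.00, TPI1 -0.02, GAPDH 0.11, ENO1 0.03 and HIF1A 0.09. With the block and without K562 number 1 GPI was 0.08, PFKP 0.04, TPI1 -0.01, GAPDH 0.13, ENO1 0.04, PFKFB4 0.11, HIF1A 0.08 and ANKRD37 0.01. When single libraries were left out, the log2 fold changes in K/VP.5 against K562 ranged from -0.07 to 0.01 for PFKL, -0.18 to 0.01 for ENO3, -0.03 to 0.37 for PDK1, -0.16 to 0.06 for EGLN1 and -0.04 to 0.33 for ANKRD37. In K562/SSedit-2 against K562 they ranged from -0.13 to 0.09 for GPI, -0.07 to 0.05 for PFKP, -0.08 to 0.42 for ALDOC, -0.02 to 0.10 for TPI1, -0.24 to 0.14 for GAPDH, -0.05 to 0.04 for ENO1, -0.10 to 0.11 for LDHA, -0.26 to 0.14 for PFKFB4, -0.48 to 0.19 for CA9, -0.01 to 0.29 for VEGFA, -0.20 to 0.10 for HIF1A, -0.06 to 0.22 for P4HA1 and -0.25 to 0.18 for ANKRD37. In K562/SSedit-2 against K/VP.5 they ranged from -0.04 to 0.63 for ADM and -0.16 to 0.00 for EGLN1. With all exon bases as the gene length, an alternative added after seeing the data, the PDK3 share in K562 moved from 70.7% to 20.4% and the ALDOC share from 42.4% to 51.1%.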
